A study of Mus musculus with 20 samples.

Results

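The 10 genes described here encode the enzymes that hydroxylate or glycosylate newly made collagen chains and the chaperones that help those chains fold in the endoplasmic reticulum. They were chosen by name (Plod1, Plod2, Plod3, Colgalt1, P4ha1, P4ha2, P4ha3, P3h1, Crtap and Serpinh1) from the 43422 genes measured, and all 10 had a value in every mouse. Abdominal aortas of 20 mice were used for RNA sequencing, with 5 mice in each of 4 groups: WT mice given saline, WT mice given angiotensin II (Ang II), Plod1-/- mice given saline and Plod1-/- mice given Ang II. Ang II was infused at 1000 ng/kg per minute, and tissue was taken on day 14. The labels give all mice as C57BL/6 and 6 months old, while the methods of the study describe male littermates on a C57Bl/6NCrl background that were younger when infusion began. Plod1-/- mice lacked Plod1 in all tissues, so no cell type was targeted. The question was whether other collagen-modifying genes were higher where Plod1 was lost, with and without Ang II.

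Collagen chains are modified on lysine and proline before 3 of them wind into a triple helix. Plod1, Plod2 and Plod3 encode lysyl hydroxylases 1, 2 and 3 (LH1, LH2 and LH3). LH1 mainly acts on lysines in the helix and LH2 on lysines of the telopeptides at the chain ends, and the hydroxylysines they make shape the cross-links laid down later by lysyl oxidases. LH3 and the galactosyltransferase encoded by Colgalt1 together build the sugars carried by some hydroxylysines. P4ha1, P4ha2 and P4ha3 encode the catalytic alpha subunits of collagen prolyl 4-hydroxylase, whose product, 4-hydroxyproline, keeps the helix stable at body temperature. P3h1 and Crtap encode parts of a complex that 3-hydroxylates a few prolines and slows folding, and Serpinh1 encodes HSP47, a collagen-specific chaperone. Mutations in several of these genes cause osteogenesis imperfecta or Ehlers-Danlos syndrome in people, and loss of LH1 causes the kyphoscoliotic form of the latter.

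Values are FPKM (sequenced fragments scaled to transcript length and library size) as deposited by the authors, so levels can be compared between genes per length. Fold changes are differences of log2(FPKM + 1), which understate the change of low genes, with the standard error (SE) and a p-value from limma adjusted by the Benjamini-Hochberg method over all genes tested. "Rose" and "fell" are written only where that adjusted p was below 0.05, and DEG means that the log2 fold change was also above 1 in size. The 4 comparisons share groups with each other and are not independent. Where groups are said to overlap or not, the share of all genes without overlap was not counted. Such statements describe the values of these mice and are not read as particular to the members. The labels do not say that the mice of a group came from separate litters, so the p-values measure the spread between these animals.

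The libraries differed in more than the 2 factors of the design. Smooth muscle markers were abundant throughout (7 of 7 genes at a group mean of at least 1 FPKM in every group) but their summed FPKM ran from 14092 to 20412 in WT saline, 5510 to 17041 in WT Ang II, 15031 to 20706 in Plod1-/- saline and 2298 to 16762 in Plod1-/- Ang II mice. Summed adipocyte markers ran from 79.6 to 441, 723 to 4117, 120.0 to 1474 and 433 to 2768 in the same order, and macrophage markers from 119.7 to 233, 151 to 760.0, 51.7 to 214 and 358 to 1810. Fibroblast markers ran from 1771 to 2635, 1426 to 1928, 909 to 1867 and 777 to 1459. Neutrophil markers reached 57.5, 192, 3.02 and 723, and erythroid markers 1443, 666, 1523 and 9716. Endothelial markers ran from 39.7 to 268 over all mice, lymphocyte markers reached no more than 10.8, and skeletal muscle markers reached 263 in WT Ang II mice and at most 7.60 in the others. Mitochondrial genes took 8.37% to 29.1% of the FPKM of a library, with group medians of 9.92%, 24.5%, 13.9% and 11.9%. In bulk tissue, fewer cells of a type cannot be told apart from less RNA per cell. Although the study describes male mice, Xist RNA was present in Plod1-/- saline mouse 5 (15.1 FPKM) and Plod1-/- Ang II mouse 1 (7.93 FPKM) and was at most 0.0328 FPKM in the other 18. Results are therefore also given without these 2 mice where that changed a call.

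Plod1 itself matched the labels in every library. It lay between 22.9 and 27.9 FPKM in WT saline mice and between 22.8 and 29.7 FPKM in WT Ang II mice, and at no more than 0.0415 FPKM in any of the 10 Plod1-/- mice. Between WT mice with Ang II and with saline the log2 difference of Plod1 was -0.05 (SE 0.10, 95% confidence interval -0.28 to 0.17, adjusted p = 0.688 by limma).

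In WT saline aorta the members spanned a wide range of levels. Serpinh1 stood highest at 614 FPKM ± 138 (SD, n = 5), followed by Crtap at 118 ± 12.0, P4ha1 at 43.9 ± 12.2, Plod3 at 37.5 ± 2.04, Colgalt1 at 30.0 ± 2.47, Plod1 at 25.9 ± 1.82, P4ha2 at 20.2 ± 2.71, P3h1 at 19.1 ± 1.18, Plod2 at 13.7 ± 1.39 and P4ha3 at 0.275 ± 0.0768. The ranges over mice overlapped between P4ha1 and Plod3, between Colgalt1 and Plod1, between Plod1 and P4ha2, and between P4ha2 and P3h1. Plod1 was still above P4ha2 within every mouse, while the order of the other overlapping pairs differed from mouse to mouse. The other neighbours in this order did not overlap. P4ha3, the third catalytic subunit, was thus all but missing from WT saline aorta, where P4ha1 and P4ha2 made up nearly all prolyl 4-hydroxylase alpha subunit RNA.

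**Figure D1:**
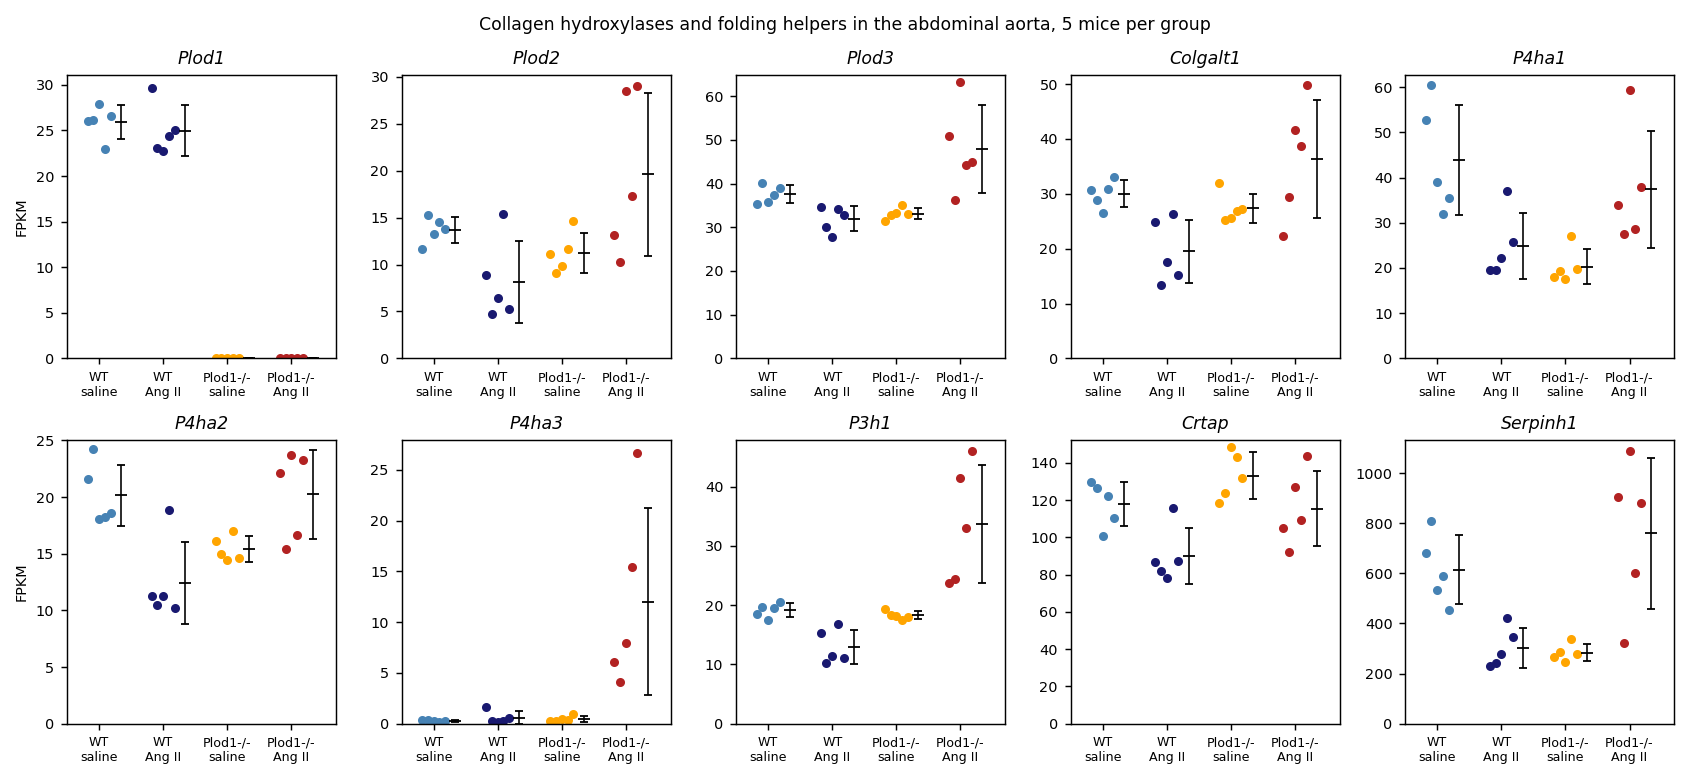
FPKM of the 10 genes in each mouse (points, 5 per group), with the mean and SD of each group as a bar to the right of its points. Each panel has its own linear axis from 0. Serpinh1 and P4ha1 are lower in both middle groups, and P4ha3 is above 4 FPKM only in Plod1-/- mice given Ang II.

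The stretches of DNA before the starts of 4 genes are shown, for Serpinh1, P4ha1 and P4ha3 because their responses to Ang II differed most between the genotypes, and for P4ha2 as a paralogue of P4ha1 and P4ha3. Each run holds the 250 bases before the RefSeq transcription start (assembly GRCm38.p6), 5′ to 3′ on the strand of the gene. Capitals mark the core of the hypoxia response element, ACGTG or GCGTG, on either strand. The windows are chr7:99353240-99353489 (minus strand) for Serpinh1, chr10:59323046-59323295 (plus) for P4ha1, chr11:54100674-54100923 (plus) for P4ha2 and chr7:100285270-100285519 (plus) for P4ha3.
Serpinh1: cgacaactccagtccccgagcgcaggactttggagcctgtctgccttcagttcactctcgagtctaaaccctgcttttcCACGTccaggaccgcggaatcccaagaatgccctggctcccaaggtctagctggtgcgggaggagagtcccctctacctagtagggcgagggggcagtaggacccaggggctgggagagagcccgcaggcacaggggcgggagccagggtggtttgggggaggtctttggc
P4ha1: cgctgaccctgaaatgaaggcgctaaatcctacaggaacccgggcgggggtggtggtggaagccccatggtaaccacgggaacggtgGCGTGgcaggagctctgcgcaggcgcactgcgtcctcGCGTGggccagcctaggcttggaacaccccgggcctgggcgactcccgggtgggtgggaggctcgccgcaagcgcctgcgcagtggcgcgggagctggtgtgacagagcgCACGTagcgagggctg
P4ha2: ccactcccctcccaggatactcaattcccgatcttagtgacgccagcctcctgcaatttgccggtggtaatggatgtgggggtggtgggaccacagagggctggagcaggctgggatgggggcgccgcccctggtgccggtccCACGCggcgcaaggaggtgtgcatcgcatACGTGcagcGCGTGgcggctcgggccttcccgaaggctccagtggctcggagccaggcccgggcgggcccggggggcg
P4ha3: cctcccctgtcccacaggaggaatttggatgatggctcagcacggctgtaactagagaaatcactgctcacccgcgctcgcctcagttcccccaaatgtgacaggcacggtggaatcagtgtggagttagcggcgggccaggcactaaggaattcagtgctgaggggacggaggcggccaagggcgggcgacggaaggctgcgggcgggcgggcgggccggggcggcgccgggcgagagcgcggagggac
P4ha1 and P4ha2 each hold 3 cores in these 250 bases and Serpinh1 holds 1, while P4ha3 holds none. Several prolyl 4-hydroxylase and lysyl hydroxylase genes are textbook targets of hypoxia-inducible factors. Over the 250 bases before and 50 after the start, 10 of the 11 windows of the 9 members with an entry held a core, and so did 43.8% of 32817 mouse promoters of this length. Colgalt1 and P3h1 had 2 windows each, those of Colgalt1 overlapping, so the windows are not independent. The promoters were not matched for base composition, and a difference between these shares was not tested. The endoplasmic reticulum stress element, a CCAAT box spaced from CCACG, was in 0 of the 11 windows and 0.119% of all promoters, and the heat shock core GAANNTTC was in 2 of the 11 (Plod1 and 1 window of Colgalt1) and 7.86% of all. The letters of CCACG and ACGTG can overlap. These are matches of letters and not sites.

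Under saline, no member rose when Plod1 was absent. Serpinh1 and P4ha1 fell to less than 50% of their WT level and P4ha2 fell slightly, while both remaining lysyl hydroxylases, the galactosyltransferase and the P3h1-Crtap pair did not pass the test. Of the 9 genes other than Plod1, 8 passed the filter of at least 1 FPKM in at least 5 mice, and 2 of them were DEGs, both lower. In this comparison 0.408% of 11999 genes were DEGs and lower, 0.358% DEGs and higher, 3.23% fell and 3.33% rose. The median log2 fold change of the 8 was -0.22, against -0.01 over all genes.

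Serpinh1 was at 682, 809.8, 533, 590.4 and 453 FPKM in the WT saline mice and at 266, 288, 246, 338 and 279 in the Plod1-/- saline mice. The highest Plod1-/- mouse lay below the lowest WT mouse. The log2 fold change was -1.09 (SE 0.15, adjusted p = 0.00684 by limma), and the adjusted p stayed below 0.05 whichever mouse was left out.

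P4ha1, the main alpha subunit in most tissues, was at 52.7, 60.6, 39.0, 31.9 and 35.5 FPKM in WT saline and at 18.0, 19.2, 17.4, 27.0 and 19.7 in Plod1-/- saline mice. Again the groups did not overlap, although WT mice 1 and 2 were well above the other WT mice. Its log2 fold change was -1.05 (SE 0.18, adjusted p = 0.0138). Without WT mouse 2 it was -0.93 and that of Serpinh1 -0.98, so that neither reached the DEG threshold, and without WT mouse 1 only Serpinh1 did. Without Plod1-/- mouse 5, which carried Xist RNA, the values of P4ha1 and Serpinh1 were -1.05 and -1.09.

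P4ha2 fell by 0.36 on the log2 scale (SE 0.09, adjusted p = 0.0472), from 20.2 FPKM ± 2.71 to 15.4 ± 1.11. The groups did not overlap, but the adjusted p rose to between 0.0532 and 0.1002 when any of the 10 mice was left out, and was 0.0946 without Plod1-/- mouse 5, the mouse with Xist RNA. P4ha3 was below the filter, at 0.190 to 0.365 FPKM in WT and 0.215 to 0.933 FPKM in Plod1-/- mice (two-sided exact permutation test, p = 0.190).

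Neither of the lysyl hydroxylases that remained rose under saline. Plod2 was at 11.6, 15.3, 13.3, 14.5 and 13.7 FPKM in WT saline mice and 11.1, 9.15, 9.86, 11.6 and 14.6 in Plod1-/- saline mice, with a log2 fold change of -0.27 (95% confidence interval -0.53 to -0.01, adjusted p = 0.168). Plod3 lay between 35.4 and 40.2 FPKM in WT and between 31.4 and 35.1 in Plod1-/- mice, without overlap, with a log2 fold change of -0.17 (-0.32 to -0.03, adjusted p = 0.119). These intervals hold no increase of either gene. Plod3 shares exon sequence with Znhit1 on the opposite strand, which reached 30.6 FPKM, and the libraries did not keep strand, so its values are uncertain. Plod2 and Colgalt1 overlap opposite-strand genes that reached only 0.658 and 1.12 FPKM.

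The summed FPKM of Plod1, Plod2 and Plod3 was 77.2 ± 3.44 (SD, n = 5) in WT saline and 44.4 ± 2.64 in Plod1-/- saline mice. Plod1 supplied 33.6% of the WT sum and Plod3 48.7%. In Plod1-/- saline mice Plod3 supplied 74.7%, with its own level no higher than in WT. Under Ang II the sum was 65.0 ± 8.13 in WT and 67.5 ± 16.7 in Plod1-/- mice, where the 5 mice ran from 46.6 to 91.7. The sums are a description and were not tested.

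**Figure D2:**
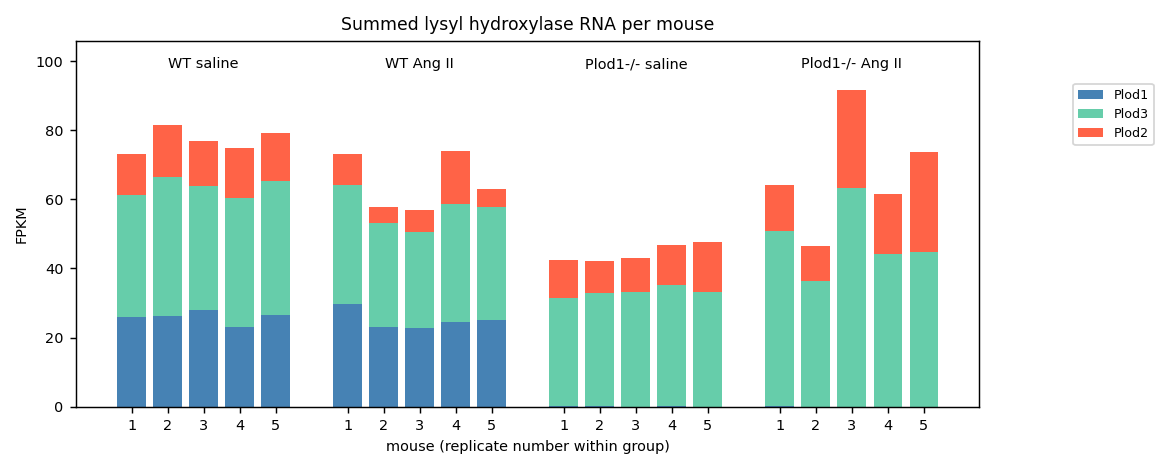
FPKM of Plod1, Plod3 and Plod2 stacked for each of the 20 mice, grouped by genotype and treatment, on a linear axis from 0. The stack loses its Plod1 layer in Plod1-/- saline mice without growth of the other layers, and 4 of the 5 Plod1-/- Ang II mice stand above all Plod1-/- saline mice.

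Colgalt1, P3h1 and Crtap did not pass the test under saline. Colgalt1 changed by -0.13 on the log2 scale (95% confidence interval -0.32 to 0.06, adjusted p = 0.344), P3h1 by -0.06 (-0.20 to 0.09, adjusted p = 0.585) and Crtap by 0.18 (-0.04 to 0.39, adjusted p = 0.266).

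Beside Serpinh1 and P4ha1, the general folding machinery of the endoplasmic reticulum was lower in Plod1-/- saline mice. Of 16 listed chaperones and folding enzymes, 14 fell and 0 rose, with a median log2 fold change of -0.67. Hspa5, encoding BiP, the main chaperone of this compartment, fell by 1.27 on the log2 scale (SE 0.16, adjusted p = 0.00474), from 218 to 427 FPKM in WT mice to 117 to 144 FPKM. Hsp90b1, encoding GRP94, fell by 0.77 (SE 0.10, adjusted p = 0.00559). P4hb, which is both the beta subunit of prolyl 4-hydroxylase and protein disulfide isomerase, fell by 0.40 (SE 0.08, adjusted p = 0.0227). It was the only gene called among 8 tested of 9 other collagen folding and modification genes.

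Few collagen chains were called. Of 6 fibrillar collagen genes tested, 0 passed by limma in either direction, and Col1a1 had a log2 fold change of -0.24 (SE 0.22, adjusted p = 0.511). Of 11 non-fibrillar collagen genes tested, only Col14a1 was called, and it fell. Of 10 tested genes of procollagen export and propeptide removal, Mia3, Pcolce and Pcolce2 fell. Mia3 encodes TANGO1, which loads procollagen for export, and Pcolce encodes an enhancer of the C-proteinase. Adm, of 12 tested hypoxia-inducible genes, and Aldh18a1, of 5 proline supply genes, also fell. Fibroblast markers were lower in the same mice (4 of 8 fell: Fbln1, Mfap5, Pdgfra and Pi16), with summed medians of 2183 FPKM in WT and 1224 in Plod1-/- saline mice, and Cd14 fell among 6 macrophage markers. Among 7 smooth muscle markers Myocd fell (by 0.57 on the log2 scale, adjusted p = 0.0406 by limma). The part of these marker differences in the lower Serpinh1 and P4ha1 was not tested.

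Under Ang II the picture was the opposite. Apart from Plod1, members that passed the test were all higher in Plod1-/- than in WT mice. P4ha3, P3h1, Serpinh1, Plod2, Colgalt1, P4ha2 and Plod3 rose, and P4ha1 and Crtap did not pass. Here "rose" means higher than in WT Ang II mice, where most members were lower than in WT saline mice. P4ha2 had means of 20.3 FPKM in Plod1-/- Ang II, 12.4 in WT Ang II and 20.2 in WT saline mice. P3h1 had means of 33.7, 12.9 and 19.1 FPKM in the same order. Of the 9 genes, 4 were DEGs. P4ha3 is one of them, but it passed the filter through the Plod1-/- mice (5 of 5, against 1 of 5 WT mice). Without it 3 of 8 were DEGs and 6 of 8 rose. In this comparison 7.45% of 12356 genes were DEGs and higher, 3.67% DEGs and lower, 20.8% rose and 10.4% fell. The median log2 fold change was 0.77 over the 8 and 0.12 over all genes, a shift that quantile normalization took to -0.03.

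Apart from Plod1, P4ha3 had the largest difference of the members. It was at 6.05, 4.10, 7.93, 15.4 and 26.6 FPKM in the Plod1-/- Ang II mice and at 1.68, 0.226, 0.208, 0.256 and 0.581 FPKM in the WT Ang II mice. Every Plod1-/- mouse was above every WT mouse. The ratio of the means was 20.4, and the log2 fold change was 2.83 (SE 0.43, adjusted p = 0.00200 by limma). The two-sided exact permutation test, which uses no filter, gave p = 0.00794, the smallest it can give with 5 against 5.

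P4ha3 had the lowest mean of the 3 alpha subunits, but it took up 16.6% ± 10.5 (SD, n = 5) of the summed FPKM of P4ha1, P4ha2 and P4ha3 in Plod1-/- Ang II mice. Its share was 0.424% ± 0.0325 in WT saline, 1.72% ± 1.98 in WT Ang II and 1.28% ± 0.837 in Plod1-/- saline mice. In Plod1-/- Ang II mouse 5 it reached 30.3% and was above P4ha2 (26.6 against 23.3 FPKM). The summed alpha subunits were at 64.4 FPKM ± 14.9 in WT saline, 37.8 ± 10.5 in WT Ang II, 36.2 ± 4.73 in Plod1-/- saline and 69.7 ± 18.9 in Plod1-/- Ang II mice.

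P3h1 was at 23.7, 24.4, 41.4, 33.0 and 46.1 FPKM in Plod1-/- and at 15.2, 10.3, 11.4, 16.9 and 11.0 in WT Ang II mice, again without overlap. It rose by 1.29 on the log2 scale (SE 0.21, adjusted p = 0.00297) and stayed a DEG whichever mouse was left out. Crtap, its partner in the 3-hydroxylation complex, did not pass. Crtap was at 105, 92.2, 127, 109 and 143 FPKM in Plod1-/- and 86.6, 81.8, 78.0, 116 and 87.1 in WT Ang II mice, with a log2 fold change of 0.35 (95% confidence interval -0.00 to 0.71, adjusted p = 0.116).

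Serpinh1 was at 906, 321, 1089, 602 and 881 FPKM in Plod1-/- and at 232, 242, 277, 421 and 344 in WT Ang II mice. Plod1-/- mouse 2 lay within the WT range and the other 4 above it. The log2 fold change was 1.24 (SE 0.33, adjusted p = 0.0174). Mouse 2 also had the highest adipocyte marker sum of its group (2768 FPKM), and the relation between the 2 was not tested.

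Among the lysyl hydroxylases, Plod2 was at 13.1, 10.3, 28.5, 17.3 and 29.0 FPKM in Plod1-/- and at 8.85, 4.69, 6.44, 15.4 and 5.28 in WT Ang II mice. It was far higher in Plod1-/- mice 3 and 5 than in mouse 2, and Plod1-/- mice 1 and 2 both lay below WT mouse 4. Plod2 rose by 1.18 (SE 0.35, adjusted p = 0.0260), but passed in only 4 of the 10 fits that left out 1 mouse, with adjusted p up to 0.0666. The call was lost without WT mouse 2, 3 or 5 or Plod1-/- mouse 3, 4 or 5. Plod3 rose by 0.55 (SE 0.15, adjusted p = 0.0203), from 27.8 to 34.5 FPKM in WT to 36.3 to 63.2 FPKM in Plod1-/- mice without overlap, and lost its call without WT mouse 2 or 3 (adjusted p up to 0.0581).

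Colgalt1 rose by 0.86 (SE 0.25, adjusted p = 0.0234), from 13.4 to 26.4 FPKM in WT to 22.4 to 49.9 FPKM in Plod1-/- mice. It passed in 4 of 10 fits that left out 1 mouse and was lost without the same 6 mice as Plod2 (adjusted p up to 0.0604). P4ha2 rose by 0.68 (SE 0.19, adjusted p = 0.0214) and lost its call without WT mouse 2, 3 or 5 or Plod1-/- mouse 3 (adjusted p up to 0.0561). P4ha1, at 27.4 to 59.3 FPKM in Plod1-/- and 19.6 to 37.1 FPKM in WT Ang II mice, had a log2 fold change of 0.55 (95% confidence interval 0.04 to 1.07, adjusted p = 0.0938). With all genes kept and no filter, the adjusted p of Serpinh1, P4ha2, Colgalt1 and Plod2 was 0.0553, 0.0553, 0.0637 and 0.0732.

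Without Plod1-/- Ang II mouse 1, which carried Xist RNA, the same 7 members rose and 5 were DEGs. The log2 fold change was then 2.99 for P4ha3, 1.40 for P3h1, 1.29 for Plod2, 1.15 for Serpinh1 and 1.02 for Colgalt1.

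WT Ang II mouse 4 stood apart from the other 4 of its group. It had the highest value of Plod2, Colgalt1, P4ha1, P4ha2, P3h1, Crtap and Serpinh1, the lowest adipocyte marker sum (723 FPKM, against 2883 to 4117), the lowest mitochondrial share (14.6%) and the highest smooth muscle sum (17041 FPKM). Without it P4ha1 rose by 0.70 (adjusted p = 0.0305) and Crtap by 0.45 (adjusted p = 0.0364) in Plod1-/- mice given Ang II. The part of these marker differences in the members' values was not tested.

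**Figure D3:**
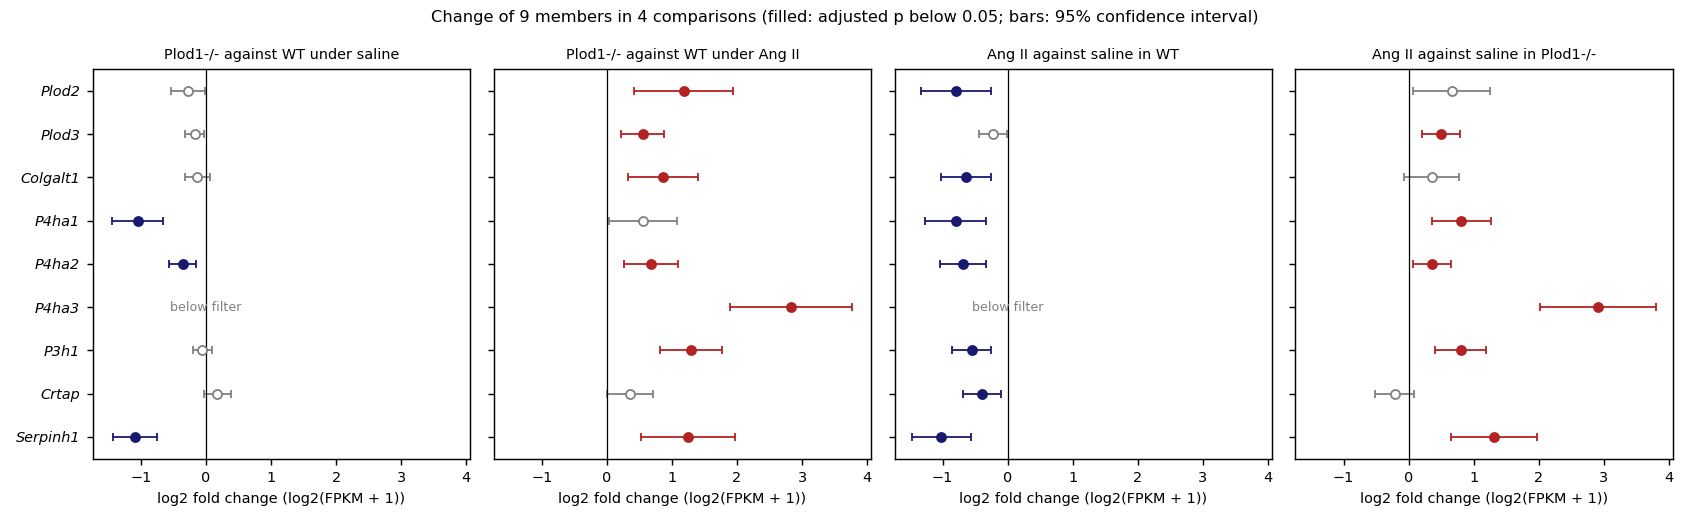
Log2 fold change of the 9 members other than Plod1 in 4 comparisons, with 95% confidence intervals; filled points had an adjusted p below 0.05 (blue lower, red higher), open points did not, and genes below the filter have no point. Filled points lie left of 0 under saline and in WT mice given Ang II, and right of 0 in both comparisons that hold the Plod1-/- Ang II group.

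Genes that work beside the members were also higher in Plod1-/- mice given Ang II. Of 8 tested of the 9 other collagen folding and modification genes, 4 rose and 1 fell. Fkbp10, which encodes the prolyl isomerase FKBP65 that assists LH2, rose by 1.54 (SE 0.20, adjusted p = 0.00122). P4hb rose by 1.26 (SE 0.20, adjusted p = 0.00223), and Ppib, encoding cyclophilin B, the isomerase of the P3h1-Crtap complex, rose by 0.77 (SE 0.16, adjusted p = 0.00666). P3h2, a prolyl 3-hydroxylase of basement membrane collagens, fell by 0.79 (SE 0.26, adjusted p = 0.0423). Fkbp14 completed the 4.

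Of 7 fibrillar collagen genes tested, Col1a1, Col1a2, Col3a1, Col5a1 and Col5a2 rose and 0 fell. Col1a1 reached 413, 450.0, 790.1, 1383 and 3049 FPKM in the Plod1-/- Ang II mice and 58.8 to 187 FPKM in WT Ang II mice, higher by 3.41 on the log2 scale (SE 0.54, adjusted p = 0.00234). Of 12 non-fibrillar collagen genes 8 rose and 0 fell. Col12a1, among those that rose, was tested only in comparisons that hold the Plod1-/- Ang II mice, as was Col5a3 of the fibrillar list. Of 10 export and propeptide genes Adamts2, Bmp1, Creb3l1 and Sec23a rose and 0 fell. Of 16 general chaperones 10 rose and Herpud1 fell. Of 12 hypoxia-inducible genes 0 passed by limma in either direction, with a median of -0.27. Pycr1 and Aldh18a1, enzymes of proline synthesis, rose among 5 proline supply genes.

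Markers of other cells moved in the same mice. All 6 macrophage, 5 of 5 neutrophil and 5 of 5 erythroid markers rose. Macrophage sums in Plod1-/- Ang II mice lay between 358 and 1810 FPKM, against 151 to 760.0 in WT Ang II mice. The neutrophil markers Csf3r, Cxcr2 and Retnlg were tested only in comparisons that hold the Plod1-/- Ang II mice. They passed the filter with the help of those mice. Smooth muscle markers Lmod1 and Smtn fell, as did fibroblast markers Fbln1, Gsn and Pi16, while the fibroblast marker Mfap5 rose. Ucp1 and Acta1, of adipocytes and skeletal muscle, fell. Their part in the higher member values was not tested.

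**Figure D4:**
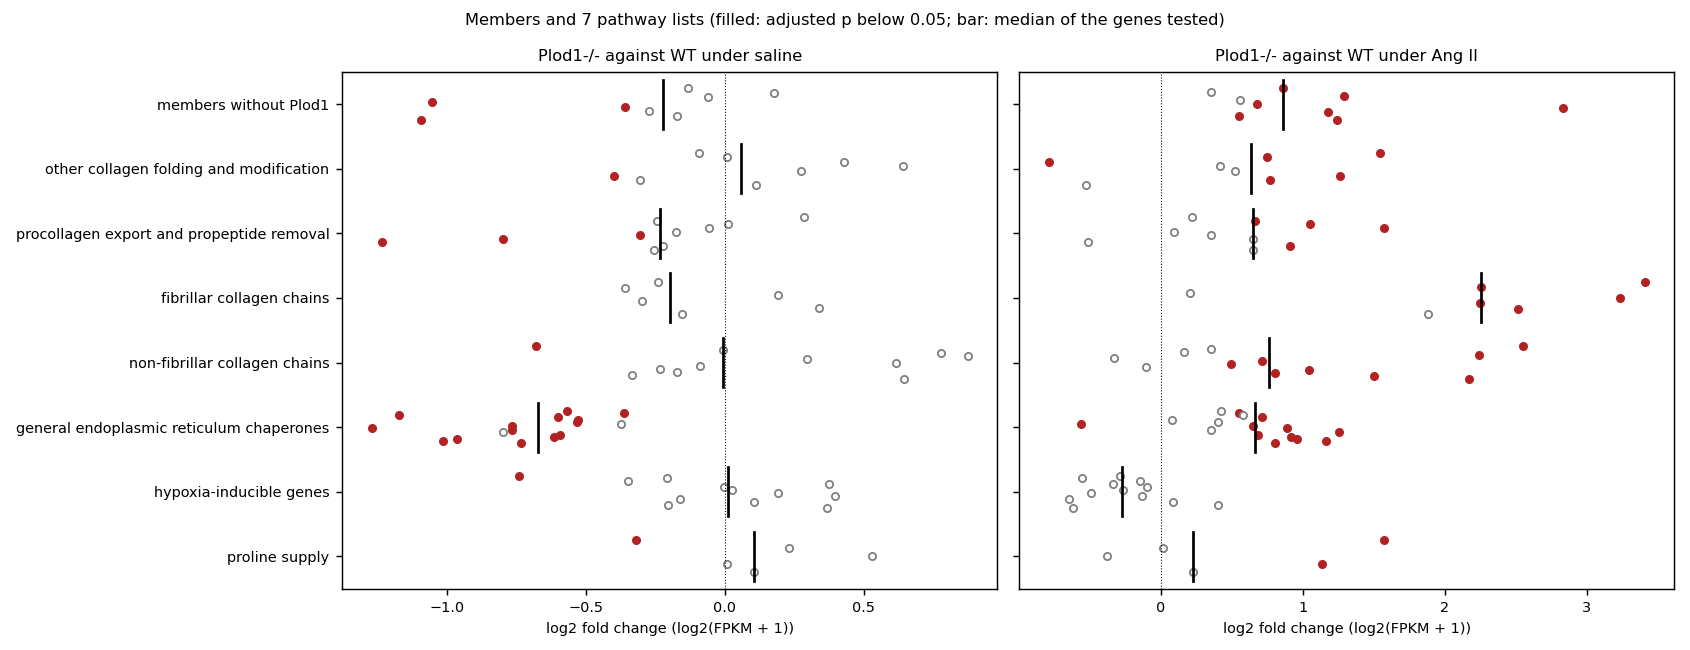
Log2 fold change of each tested gene of the member list (without Plod1) and of 7 related lists, Plod1-/- against WT under saline (left) and under Ang II (right); filled points had an adjusted p below 0.05, and the bar is the median of a list. General endoplasmic reticulum chaperones centre on -0.67 under saline and 0.66 under Ang II, while fibrillar collagens centre on -0.20 and 2.25. P4ha3, Col5a3 and Col12a1 have a point only under Ang II.

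In WT mice most members were lower with Ang II than with saline. Of the 8 tested genes other than Plod1, 7 fell and 0 rose: Serpinh1, P4ha1, Plod2, P4ha2, Colgalt1, P3h1 and Crtap. Serpinh1 fell by 1.02 on the log2 scale (SE 0.21, adjusted p = 0.00505) and was the only DEG, and it fell short of that threshold without WT saline mouse 1 or 2 or WT Ang II mouse 1, 2 or 3. In this comparison 21.5% of 11994 genes fell, 16.5% rose, 2.28% were DEGs and lower and 6.38% DEGs and higher. The median log2 fold change of the 8 was -0.66, against -0.14 over all genes.

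P4ha1 fell by 0.80 (SE 0.21, adjusted p = 0.0162), Plod2 by 0.79 (SE 0.25, adjusted p = 0.0285), P4ha2 by 0.68 (SE 0.16, adjusted p = 0.0101) and Colgalt1 by 0.64 (SE 0.18, adjusted p = 0.0183). P3h1 fell by 0.55 (SE 0.14, adjusted p = 0.0121) and Crtap by 0.40 (SE 0.13, adjusted p = 0.0353). Groups did not overlap for Serpinh1, Colgalt1, P3h1 and Plod3, and the last had a log2 fold change of -0.23 (adjusted p = 0.0783, and 0.0342 without WT Ang II mouse 4). Calls depended on single mice for Plod2, which passed in 4 of 10 fits that left out 1 mouse (adjusted p up to 0.0733 and lost without WT saline mouse 2, 4 or 5 or WT Ang II mouse 2, 3 or 5), for Crtap, which passed in 2 (up to 0.0853, kept only without WT saline mouse 3 or WT Ang II mouse 4), and for Colgalt1 without WT Ang II mouse 5 (0.0507). With no filter P4ha1, Colgalt1, Plod2 and Crtap had adjusted p of 0.0504, 0.0534, 0.0816 and 0.0813.

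P4ha3 was below the filter in this comparison. WT Ang II mouse 1, at 1.68 FPKM, was the only WT mouse above 1 FPKM (two-sided exact permutation test over both groups, p = 0.341). The same mouse had the highest macrophage sum of its group (760.0 FPKM, against 151 to 232) and the highest Col1a1 (187 FPKM).

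Related lists were lower as well. Of 16 general chaperones 15 fell and 0 rose, and Fkbp10, Fkbp14, P4hb and Ppib fell among 8 collagen folding and modification genes. Of 10 export and propeptide genes 8 fell, and of 11 non-fibrillar collagen genes 6 fell, with 0 higher in either list. In contrast 7 of 12 hypoxia-inducible genes rose, among them Vegfa and Bnip3, and Slc2a1 and Car9 fell. All 5 tested adipocyte markers rose, from a summed median of 92.5 FPKM in WT saline to 3184 in WT Ang II mice, and 5 of 7 smooth muscle markers fell. Fibroblast markers Fbln1 and Mfap5 fell by 0.64 and 0.90 on the log2 scale. Acta1 and Tnnt3, of skeletal muscle, rose, as did Csf1r among macrophage and Cdh5 and Kdr among endothelial markers, while Pecam1 fell. The part of this tissue difference in the members' lower FPKM was not tested. With mitochondrial genes left out and libraries rescaled to equal sums, the log2 difference of Serpinh1 was -0.98.

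In Plod1-/- mice the direction of the members was the reverse. P4ha3, Serpinh1, P4ha1, P3h1, Plod3 and P4ha2 rose, 0 fell, and Plod2, Colgalt1 and Crtap did not pass. P4ha3 and Serpinh1 were DEGs, the former having passed the filter only through the Ang II mice. In this comparison 23.8% of 12333 genes rose, 20.1% fell, 8.38% were DEGs and higher and 5.51% DEGs and lower. Without P4ha3, 5 of 8 rose with a median log2 fold change of 0.58, against 0.05 over all genes.

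P4ha3 went from 0.215 to 0.933 FPKM under saline to 4.10 to 26.6 FPKM under Ang II, and rose by 2.91 on the log2 scale (SE 0.40, adjusted p = 3.22e-04; exact permutation p = 0.00794). Serpinh1 rose by 1.31 (SE 0.30, adjusted p = 0.00509) and P4ha1 by 0.81 (SE 0.20, adjusted p = 0.00886). P3h1 rose by 0.80 (SE 0.18, adjusted p = 0.00457) and Plod3 by 0.49 (SE 0.13, adjusted p = 0.0122). The groups did not overlap for P4ha3, P4ha1, P3h1 and Plod3, and did for Serpinh1. P4ha2 rose by 0.35 (SE 0.13, adjusted p = 0.0493), a call kept only without Plod1-/- Ang II mouse 2 or 4.

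The change of Plod2 was 0.66 on the log2 scale (95% confidence interval 0.06 to 1.26, adjusted p = 0.0700), Colgalt1 of 0.35 (-0.07 to 0.78, adjusted p = 0.157) and Crtap of -0.22 (-0.51 to 0.08, adjusted p = 0.218). Without the 2 mice that carried Xist RNA, Plod2 (0.86, adjusted p = 0.0401) and Colgalt1 (0.51, adjusted p = 0.0310) passed and P4ha2 did not (0.30, adjusted p = 0.140). P4ha3 was then below the filter, since only 4 mice reached 1 FPKM. Beside these changes 13 of 16 general chaperones rose and Herpud1 fell, and all 7 fibrillar collagen genes tested rose. All 7 smooth muscle markers fell, and all 6 macrophage, 5 of 5 neutrophil and 5 of 5 erythroid markers rose. The medians of these last 3 lists were 2.97, 4.40 and 3.74 on the log2 scale. Col5a3, Csf3r, Cxcr2 and Retnlg, counted here, were tested only in comparisons that hold the Plod1-/- Ang II mice and passed the filter with their help. Adipoq, Fabp4, Cdh5, Kdr and Mfap5 also rose among adipocyte, endothelial and fibroblast markers, and Gsn fell. The part of these marker differences in the members' values was not tested.

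The other collagen folding and modification genes were divided in this comparison. Of 8 tested, Fkbp10, P4hb and Ppib rose and P3h2 and Tmem38b fell, and the 2 that fell were the DEGs of the list, at -1.52 and -1.04. Of 12 non-fibrillar collagen genes 4 rose, and Col18a1 and Col4a5 fell. Col12a1, among those that rose, was tested only in comparisons that hold the Plod1-/- Ang II mice. Of 10 export and propeptide genes 4 rose, and Adamts14 fell. Of 12 hypoxia-inducible genes Ldha and Pgk1 rose, as they did in WT mice, and Car9 and Ndrg1 fell.

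The response to Ang II differed between the genotypes for most members. In the interaction of genotype and Ang II over all 20 mice, where a positive value means a response further upward in Plod1-/- mice, 8 of the 9 members passed and all 8 were positive. Of these 6 were above 1 on the log2 scale. Without P4ha3 the numbers were 7 and 5 of 8. In the interaction 23.8% of 13263 genes were positive and passed, 14.1% negative and passed, 9.69% DEGs and positive and 6.36% DEGs and negative, and the median of all genes was 0.12.

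The interaction of P4ha3 was 2.66 (SE 0.47, adjusted p = 4.47e-04), that of Serpinh1 2.33 (SE 0.37, adjusted p = 2.09e-04) and that of P4ha1 1.61 (SE 0.31, adjusted p = 8.57e-04). Plod2 had 1.45 (SE 0.39, adjusted p = 0.00718), P3h1 1.35 (SE 0.23, adjusted p = 3.20e-04), P4ha2 1.04 (SE 0.21, adjusted p = 0.00139), Colgalt1 1.00 (SE 0.27, adjusted p = 0.00803) and Plod3 0.73 (SE 0.16, adjusted p = 0.00211). All 8 passed whichever of the 20 mice was left out, and without both mice that carried Xist RNA P4ha3 had 2.92 and Serpinh1 2.24. Crtap alone did not pass, at 0.18 (95% confidence interval -0.20 to 0.56, adjusted p = 0.458), so its response to Ang II was not shown to differ between WT and Plod1-/- mice. Of 16 general chaperones 14 also passed with positive values, among them Hspa5 at 2.16 (SE 0.26). Of 12 hypoxia-inducible genes only Ndrg1 passed, with a negative value.

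The genes most alike across the 20 mice differed from member to member. As a description, with all genes drawn from the same 20 libraries and with the group differences included, the genes most like Serpinh1 by Pearson's r of log2(FPKM + 1) were Hsp90b1 (r = 0.91), Kdelr3 (0.91) and Pdia3 (0.91), and P4ha1 was most like Hsp90b1 (0.89), Ubfd1 (0.89) and Serpinh1 (0.88). P4ha3 was most like Ddah1 (0.98), Col1a1 (0.97) and Runx1 (0.97), and P3h1 most like Hif1a (0.97), Cd276 (0.96) and Chsy1 (0.96). Crtap was most like P3h4 (0.89), whose product joins the complexes that modify collagen with LH1 and P3h3. Plod2 was most like Cdc16, Sec23a and Ikbip (all 0.94), Plod3 like Tuba1b (0.94), Mydgf (0.93) and Ostc (0.93), Colgalt1 like Galnt1 (0.94), Dcaf7 (0.94) and Trip12 (0.94), and P4ha2 like Acbd3, Morf4l2 and Tceal9 (all 0.93).

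**Figure D5:**
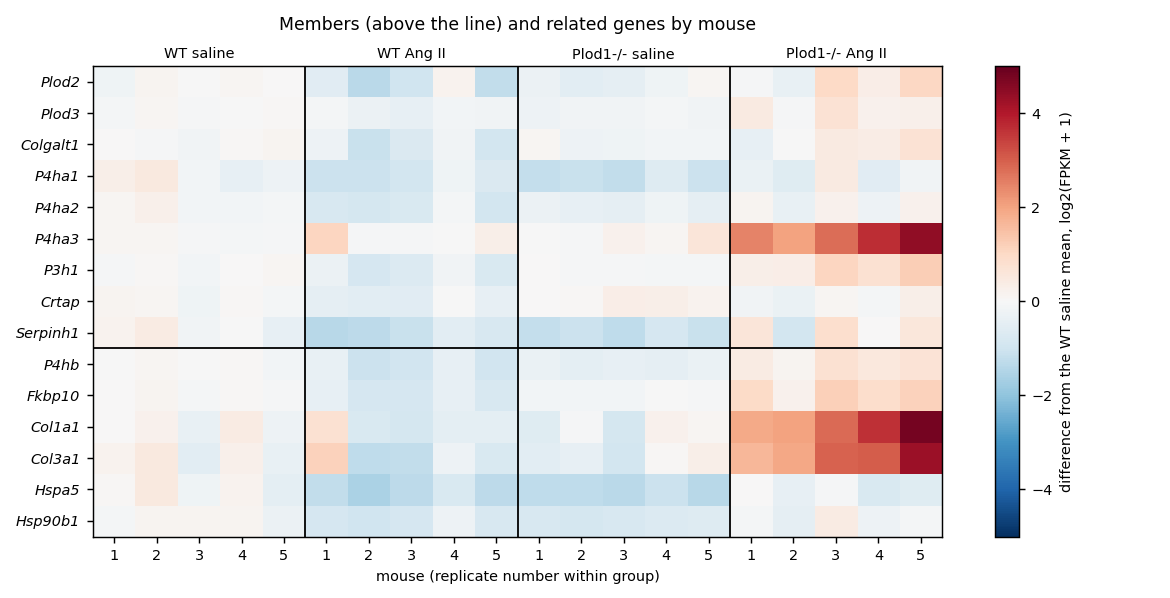
Difference of each mouse from the WT saline mean on the log2(FPKM + 1) scale for 9 members (above the line) and 6 related genes (below it, picked after their values were seen), with red higher and blue lower. P4ha3, Col1a1 and Col3a1 are red in all 5 Plod1-/- Ang II mice and deepest in mouse 5, while Serpinh1, P4ha1, Hspa5 and Hsp90b1 are blue in both WT Ang II and Plod1-/- saline mice.

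The 5 Plod1-/- mice given Ang II differed among themselves. P4ha3 and Col1a1 were highest in mouse 5 (26.6 and 3049 FPKM), where Serpinh1 was at 881 FPKM, Hspa5 at 202 FPKM and the smooth muscle sum at its lowest (2298 FPKM). Mouse 3 had the highest Serpinh1 (1089 FPKM), P4ha1 (59.3 FPKM), Plod3 (63.2 FPKM) and macrophage sum (1810 FPKM). In mouse 1, which carried Xist RNA and kept a smooth muscle sum of 16762 FPKM, Serpinh1 was at 906 FPKM and P4ha3 at 6.05 FPKM.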

How the data were processed

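The aortas of 20 mice (5 per group) were compared. By the methods of the study, reads were cleared of ribosomal RNA and aligned with HISAT2, and stringtie, cuffquant and cuffnorm gave the gene values. The tools listed in the submitters' notes are HISAT2 2.1.0, Bowtie2 2.2.3 and HTSeq 0.6.0, with mm10 as the assembly. The route to the deposited values is therefore not certain. The deposited values are FPKM per gene as computed by the authors. With no read counts the absolute depth is unknown, and precision enters only through the spread between mice. Relative depth, estimated from the commonest ratio between libraries among genes of low FPKM, ran from 0.895 to 1.08 times that of WT saline mouse 1. The kit does not mark strand. Symbols and coordinates come from GENCODE M21 (GRCm38), promoters from RefSeq.

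FPKM values were taken as log2(FPKM + 1), and genes with at least 1 FPKM in at least 5 mice of a comparison were fitted with limma 3.58.1 (R 4.3.3) and eBayes with a variance trend. DEGs needed an adjusted p below 0.05 and a change of more than 1 (log2) in either direction. edgeR, which the authors used, needs counts. Members below the filter had two-sided exact permutation tests (scipy 1.17.1). The method was checked on simulated data. The members and gene lists were chosen with earlier results of these data known. Named genes are the members, genes of the lists and, for each member, the 3 genes most like it. Lists were described by counts and medians and not tested. Alternatives were a pseudocount of 0.1, no filter, replicate block, no variance trend, quantile normalization, mitochondrial genes left out, weights per mouse, all groups in 1 fit, the adjusted p alone, both libraries with Xist RNA left out and each mouse left out in turn.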

Additional observations from a re-analysis of the deposited data

Results flagged for a closer look

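In 5 of 40 groups of 5 mice the highest mouse stood apart from the other 4 by Dixon's criterion, which chance passes in about 1 of 20 groups. P4ha2 was at 18.8 FPKM and Crtap at 116 FPKM in WT Ang II mouse 4. P4ha3 was at 1.68 FPKM in WT Ang II mouse 1, and P4ha1 at 27.0 FPKM in Plod1-/- saline mouse 4. Plod1 was at 0.0284 FPKM in Plod1-/- Ang II mouse 1, with the other 4 mice of that group listed at 0. With those at 0, any value above 0 passes the criterion, so this flag was fixed in advance.

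The log2 response to Ang II differed between the genotypes, by limma's interaction term over 20 mice, for 8 members. Of all 13263 genes tested, 23.8% were positive and passed and 14.1% were negative and passed. P4ha3, counted here, passed the filter through the Plod1-/- Ang II mice (5 of 5, against 1 of 5 WT Ang II mice). The differences were 2.66 for P4ha3, 2.33 for Serpinh1, 1.61 for P4ha1, 1.45 for Plod2, 1.35 for P3h1, 1.04 for P4ha2, 1.00 for Colgalt1 and 0.73 for Plod3, each further upward in Plod1-/- mice.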

How the results depend on the processing

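The number of DEGs among the 9 members other than Plod1 was small and moved with the settings. Between genotypes under saline it was 2, and 0 with weights per mouse, and it ran from 0 to 2 as each mouse was left out (0 without WT saline mouse 2, 1 without mouse 1). In that comparison 0.408% of all genes were DEGs and lower. Between genotypes under Ang II it was 4, and 2 with no filter, while 7 members were called by the adjusted p alone. Without P4ha3, which passed the filter through the Plod1-/- mice, 3 were DEGs and 6 were called. There 7.45% of all genes were DEGs and higher, and 20.8% rose. For Ang II in WT mice the number of DEGs was 1, 0 with mitochondrial genes left out, and ran from 0 to 2 as mice were left out. By the adjusted p alone 7 members were called. There 2.28% of all genes were DEGs and lower, and 21.5% fell. For Ang II in Plod1-/- mice it was 2, while 6 members were called by the adjusted p alone. Without P4ha3 these numbers were 1 and 5. There 8.38% of all genes were DEGs and higher, and 23.8% rose. The number of DEGs ran from 1 to 2. It was 1 without both libraries with Xist RNA and without any single Plod1-/- Ang II mouse. P4ha3 then fell below the filter, since only 4 mice reached 1 FPKM, so this drop was fixed in advance. Causes of the other shifts were not tested. Of 971 fold changes of single members refitted, 873 kept direction and call, 78 lost the call, 17 gained it and 3 turned sign. The 3 were the interaction of Plod1, 0.03 as reported and -0.13 with a pseudocount of 0.1, -0.017 with quantile normalization and -0.0057 with mitochondrial genes left out, none of which passed.

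With the replicate block the count under saline was 1. In a comparison 1 or 2 of 5 same-numbered pairs of mice correlated above 0.1. The highest r was 0.421, for Ang II against saline in Plod1-/- mice, where 2 of 5 mice were most alike with their own number. So few pairs cannot settle whether replicate numbers pair the mice. The block ended the call of 7 of 47 member values and added 1. Absolute depth is unknown, so low values such as those of P4ha3 carry no counting interval.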
